A study of Mus musculus with 5 samples.

Results

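The 9 genes described here, Acta2, Myl9, Cald1, Cav1, Fn1, Fbn1, Postn, Lox and Mmp2, encode contractile, caveolar and extracellular matrix proteins of fibroblasts. They were taken by symbol from 21779 protein-coding genes of the RefSeq annotation, as a list given by name. Their surroundings held 25 of the 22755 CTCF peaks called on chromosomes 1 to 19, X and Y. A peak was counted for a gene when its midpoint lay in the gene body or within 100 kb of either end.

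The peaks came from chromatin immunoprecipitation of CTCF in NIH3T3, a fibroblast line from mouse embryos. Every library came from cells that stably carried H2B-mCherry, the rtTA3G transactivator and CDX2 under the doxycycline-responsive TRE3G promoter. The labels do not say whether the line is a single clone. The CTCF libraries numbered 2 with doxycycline, given for 6 h at a dose the labels write as 500 ng/µL, and 2 without it. A further library was untreated input, which makes 5. The analysed values were a single list of intervals merged over both conditions, with no height, score or sample name. The effect of doxycycline on these genes was therefore not tested, replicates could not be compared, depth is unknown, and the values below are descriptions with no p-value. No expression was measured, so the fibroblast identity of the cells could not be checked against markers.

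CTCF is a zinc finger protein that stops the cohesin complex as it extrudes chromatin loops, and many of its sites are loop anchors or boundaries between neighbouring regulatory domains. The genes described here belong to the programme by which fibroblasts pull on and build their surroundings. Smooth muscle actin, the regulatory myosin light chain and caldesmon form and regulate contractile stress fibres. Fibronectin, fibrillin and periostin are secreted matrix proteins, lysyl oxidase crosslinks collagen and elastin, and matrix metalloproteinase 2 degrades matrix. Caveolin 1 coats the membrane pits called caveolae.

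Among the 6 genes with an entry in the promoter sequences, Cav1 was the gene with a CTCF peak over an annotated promoter window. The sequences came from RefSeq (GRCm38.p6, the assembly behind mm10), as windows of 300 bases from 250 before to 50 after a transcription start, written 5′ to 3′ on the strand of the gene. Fn1, Lox and Mmp2 were not among them. Cav1 has 2 windows on the plus strand of chromosome 6, and the peak at chr6:17307487-17307740 covered 203 bases of the downstream one. These windows are shown to place that peak, with bases inside a peak in capitals. The third, an internal start of Dlgap4, a gene of a postsynaptic scaffold protein, holds the peak that bounds Myl9 on its lower side. The same peak covered 153 bases of the promoter window of 4930405A21Rik, on the opposite strand, which is not printed.
Cav1, upstream start, chr6:17306085-17306384, plus strand: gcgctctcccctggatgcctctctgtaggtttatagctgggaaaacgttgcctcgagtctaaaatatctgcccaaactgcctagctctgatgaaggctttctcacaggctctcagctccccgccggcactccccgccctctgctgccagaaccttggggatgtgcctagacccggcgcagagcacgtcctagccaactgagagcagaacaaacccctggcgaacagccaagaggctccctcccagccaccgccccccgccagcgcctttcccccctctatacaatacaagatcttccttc
Cav1, downstream start, chr6:17307390-17307689, plus strand: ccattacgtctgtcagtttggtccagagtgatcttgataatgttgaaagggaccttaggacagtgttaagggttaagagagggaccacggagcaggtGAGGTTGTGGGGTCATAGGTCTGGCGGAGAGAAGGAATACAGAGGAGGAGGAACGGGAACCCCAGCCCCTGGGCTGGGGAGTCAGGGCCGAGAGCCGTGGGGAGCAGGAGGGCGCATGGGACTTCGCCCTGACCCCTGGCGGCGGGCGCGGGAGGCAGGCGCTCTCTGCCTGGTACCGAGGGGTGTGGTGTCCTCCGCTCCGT
Dlgap4, internal start, chr2:156720715-156721014, plus strand: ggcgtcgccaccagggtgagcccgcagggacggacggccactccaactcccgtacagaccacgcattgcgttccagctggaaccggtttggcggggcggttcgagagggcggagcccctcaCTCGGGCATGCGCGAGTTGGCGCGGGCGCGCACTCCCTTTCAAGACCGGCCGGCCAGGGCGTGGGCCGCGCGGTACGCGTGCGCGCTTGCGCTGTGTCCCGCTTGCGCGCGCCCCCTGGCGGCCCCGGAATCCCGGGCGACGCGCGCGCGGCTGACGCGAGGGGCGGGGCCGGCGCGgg

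In the downstream Cav1 window the start lay 0.027 kb beyond the peak midpoint, while the upstream Cav1 start lay 1.28 kb before it and its window held no peak base. Of all 32851 promoter windows, 3.59% overlapped a peak. The core of the CTCF consensus motif was searched on both strands. It was found in 17.1% of the 1179 windows that overlapped a peak, in 1.88% of the others and in 2.43% of all, and in none of the 3 windows printed. A looser form, which lets the third base vary, includes every match of the first and was added after the sequences were seen, occurred in 39.4% of the windows with a peak, 7.46% of those without and 8.61% of all. It matched at positions 232 to 243 of the Dlgap4 window, counted from its first base, as GCCCCCTGGCGG, the reverse strand of the motif, inside the peak. Neither Cav1 window held either form, but the downstream one covered 203 of the 254 bases of the peak, and the rest was not searched.

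At all 9 genes a peak was present inside the window, against 81.8% of all protein-coding genes. The average over genes matched to them in length was 87.4%. The counts ran from 1 at Cav1 through 2 at Cald1, Fn1, Postn and Lox, 3 at Mmp2 and 4 at Acta2 and Fbn1 to 5 at Myl9, with a median of 2. Each gene was set beside the 500 protein-coding genes nearest to it in length. Against them 2 of the 9 lay above the matched median, 1 at it and 6 below, and the median of their percentiles was 34.3. A percentile here is the share of matched genes with fewer peaks plus 50% of the share with the same number. These genes also had few neighbours: 7 of the 9 had fewer other protein-coding genes in the window than their matched median. Matching was then also done on the number of neighbouring genes, to within 1, an alternative added after the data were seen. Its 500 genes came from fewer candidates, so their lengths could lie farther off. Under it 3 of the 9 lay above the matched median. The percentile of Fn1 then moved from 26.0 to 45.4, that of Lox from 24.5 to 47.0, that of Postn from 28.1 to 53.0, that of Mmp2 from 38.8 to 60.6 and that of Cav1 from 19.7 to 33.5. Acta2 moved from 50.4 to 67.4 and Myl9 from 55.0 to 63.7, while Cald1 moved from 34.3 to 19.8 and Fbn1 from 55.1 to 50.2. The median percentile was then 50.2 in place of 34.3. With a flank of 250 kb and matching on length alone it was 52.0, with 4 genes above the matched median. With a flank of 50 kb it was 44.6, and the remaining alternatives gave 32.15 to 39.5. The part of the sparse surroundings in the low counts was not tested.

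**Figure D1:**
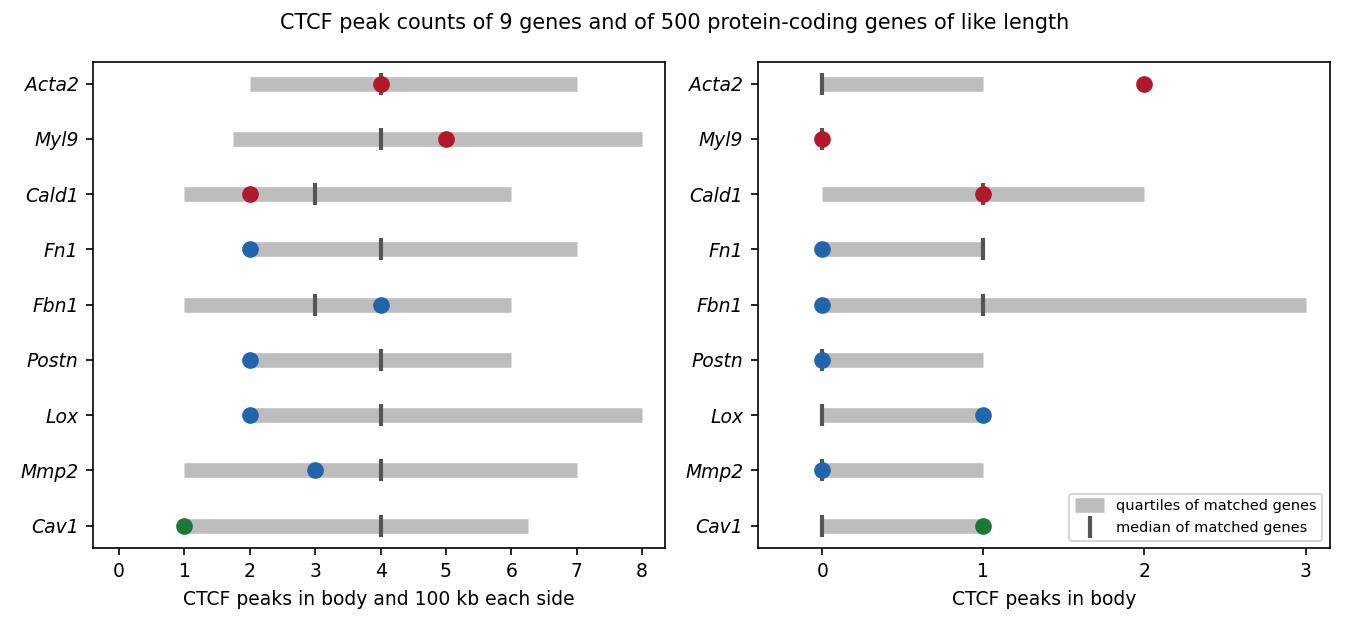
Number of CTCF peaks in the body and 100 kb each side (left) and in the body alone (right) of each gene (points; red contractile, blue matrix, green caveolar), with the quartiles (grey bars) and median (tick) of the 500 protein-coding genes nearest in length. Acta2, with 2 body peaks, is the point that lies outside its bar.

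Body peaks were found at 4 of the 9 genes, 5 in all: 2 in Acta2 and 1 each in Cald1, Lox and Cav1. Over all protein-coding genes 29.5% had a body peak, and the average over the matched genes was 40.5%, which corresponds to 3.65 of 9 genes. Myl9, Fn1, Fbn1, Postn and Mmp2 had none. No gene of the 9 had a peak within 1 kb of either end, against 12% of all protein-coding genes and an average of 13.3% of matched genes, or 1.19 of 9. Within 2.5 kb of an end 3 did, Acta2, Lox and Cav1, against 21.2% of all genes. Both counts were near the background for so few genes.

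The peaks of these genes were mostly of ordinary width. Their median was 245 bp (quartiles 206 and 269 bp, range 175 to 793 bp) against 262 bp (217 and 317 bp) for all peaks, and 9 of the 25 reached the median of all. By midpoint, 5 lay in the bodies of the 9 genes, 8 in another protein-coding gene, 1 in a non-coding gene and 11 outside genes. Together 52% lay in protein-coding bodies, against 49.2% of all peaks. The widest, of 793 bp at chr2:125251877-125252669, lay in Dut near Fbn1, and 0.505% of all peaks were as wide or wider.

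Among the contractile genes, Acta2 stood out for peaks inside the gene. Acta2, the gene of smooth muscle actin and the usual marker of myofibroblasts, lies on the minus strand of chromosome 19 (34240336 to 34255585, 15.2 kb). Its body peaks, of 179 bp at chr19:34241368-34241546 and 262 bp at chr19:34244115-34244376, lay 92.6% and 74.4% of the way from the transcription start to the far end. Both were thus in the downstream part of the gene, 1.12 and 3.91 kb from its end. Of the matched genes 95% had fewer than 2 body peaks and 1.6% had more, which is percentile 96.7. Among 100 genes of like length on chromosome 19 it was 86.5. With peaks of at least median width it was 90.4, from the peak of 262 bp alone, a width equal to that median. Of the related contractile genes counted below, Mrtfa (98.6), Myh11 (97.9) and Srf (97.1) had higher percentiles for body peaks, and the others had lower ones. The end of Acta2 is 0.003 kb from the end of Stambpl1, a gene of a deubiquitinase that is transcribed towards it, so the peaks also sit just beyond that gene.

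Outside its body Acta2 was far from CTCF peaks. The next ones lay 88.2 kb below, in Ankrd22, and 78.9 kb above, past Fas, the gene of a death receptor. Between these flanking peaks lay 182 kb with Stambpl1, Acta2 and Fas whole inside it, against a matched median of 104 kb (quartiles 55.7 and 219 kb). The interval was at percentile 70.5, or 85 among 100 genes of like length on chromosome 19. The nearer flanking peak was farther away than in 84.6% of matched genes. In all, the 4 peaks of Acta2 equalled the matched median of 4, but chromosome 19 is rich in peaks. The median window count of its protein-coding genes was 6, against 3 over all chromosomes, and among the 100 genes of like length on that chromosome the percentile was 29.0 in place of 50.4.

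Myl9, which encodes the regulatory light chain of nonmuscle and smooth muscle myosin, had the highest count of the 9 with no peak in the gene. It lies on chromosome 2 (156775408 to 156781657, plus strand, 6.25 kb). Of its 5 peaks, 3 lay upstream at 69.8, 64.4 and 54.5 kb before the gene, all within Dlgap4. The nearest of them is the peak over the internal Dlgap4 start printed above. On the downstream side lay a peak of 384 bp at 28.0 kb, in the space between Myl9 and LOC115486128, and another at 92.2 kb, within 1 kb of the ends of both Rab5if and Sla2. The flanking peaks were 88.8 kb apart and enclosed Myl9 alone, close to the matched median of 84.5 kb. Its count lay at percentile 55.0 and matched genes had a median of 4.

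Cald1, the gene of caldesmon, which binds actin and regulates its contact with myosin, is among the long genes of the set (chromosome 6, 34598495 to 34775469, plus strand, 177 kb). Its body held a single peak of 253 bp at chr6:34760103-34760355, 91.4% of the way along. The first 162 kb of the gene was free of peaks. That stretch includes a second annotated start, 50.8 kb before the peak, and the first start, 49.3 kb after the nearest upstream peak. The flanking peaks lay 49.3 kb below and 103 kb above the gene, 329 kb apart, against a matched median of 356 kb. The upper one lay within 1 kb of an end of Cyren, just outside the 100 kb window, and the genes Agbl3, Tmem140 and Cyren lay whole in the interval. The count of 2 was at percentile 34.3, or 71.5 with a flank of 250 kb, and its single body peak equalled the matched median.

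Cav1 stood apart by the distance to its surrounding peaks. Cav1, the gene of caveolin 1, lies on chromosome 6 (17306335 to 17341328, plus strand, 35.0 kb), with its relative Cav2 17.2 kb upstream. The peak at its downstream start, 3.65% of the way along the body, was the single one in the whole window. The next peaks lay 200.5 kb below, within 1 kb of an end of Tes, a gene of a focal adhesion protein, and 248.5 kb above. The interval of 484 kb between them held Cav2 and the receptor tyrosine kinase gene Met whole, against a matched median of 134 kb (quartiles 75.6 and 325 kb). That interval was at percentile 83.8, and the nearer flanking peak was farther away than in 92.4% of matched genes. Intervals were not matched on neighbouring genes, of which Cav1 had 1 in its window against a matched median of 4.

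The Cav1 peak thus divided that interval into 202 kb with Cav2 and the upstream Cav1 start, and 282 kb with nearly all of the Cav1 body and Met. Across the genome the median distance between neighbouring peak midpoints was 32.8 kb, and 12% of distances exceeded the shorter of these parts. Cav2 itself had the Cav1 peak as its nearest, 18.5 kb away, and no other in its window. With 1 peak Cav1 lay at percentile 19.7, the lowest of the 9 genes, whereas for body peaks it lay at 73.8.

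**Figure D2:**
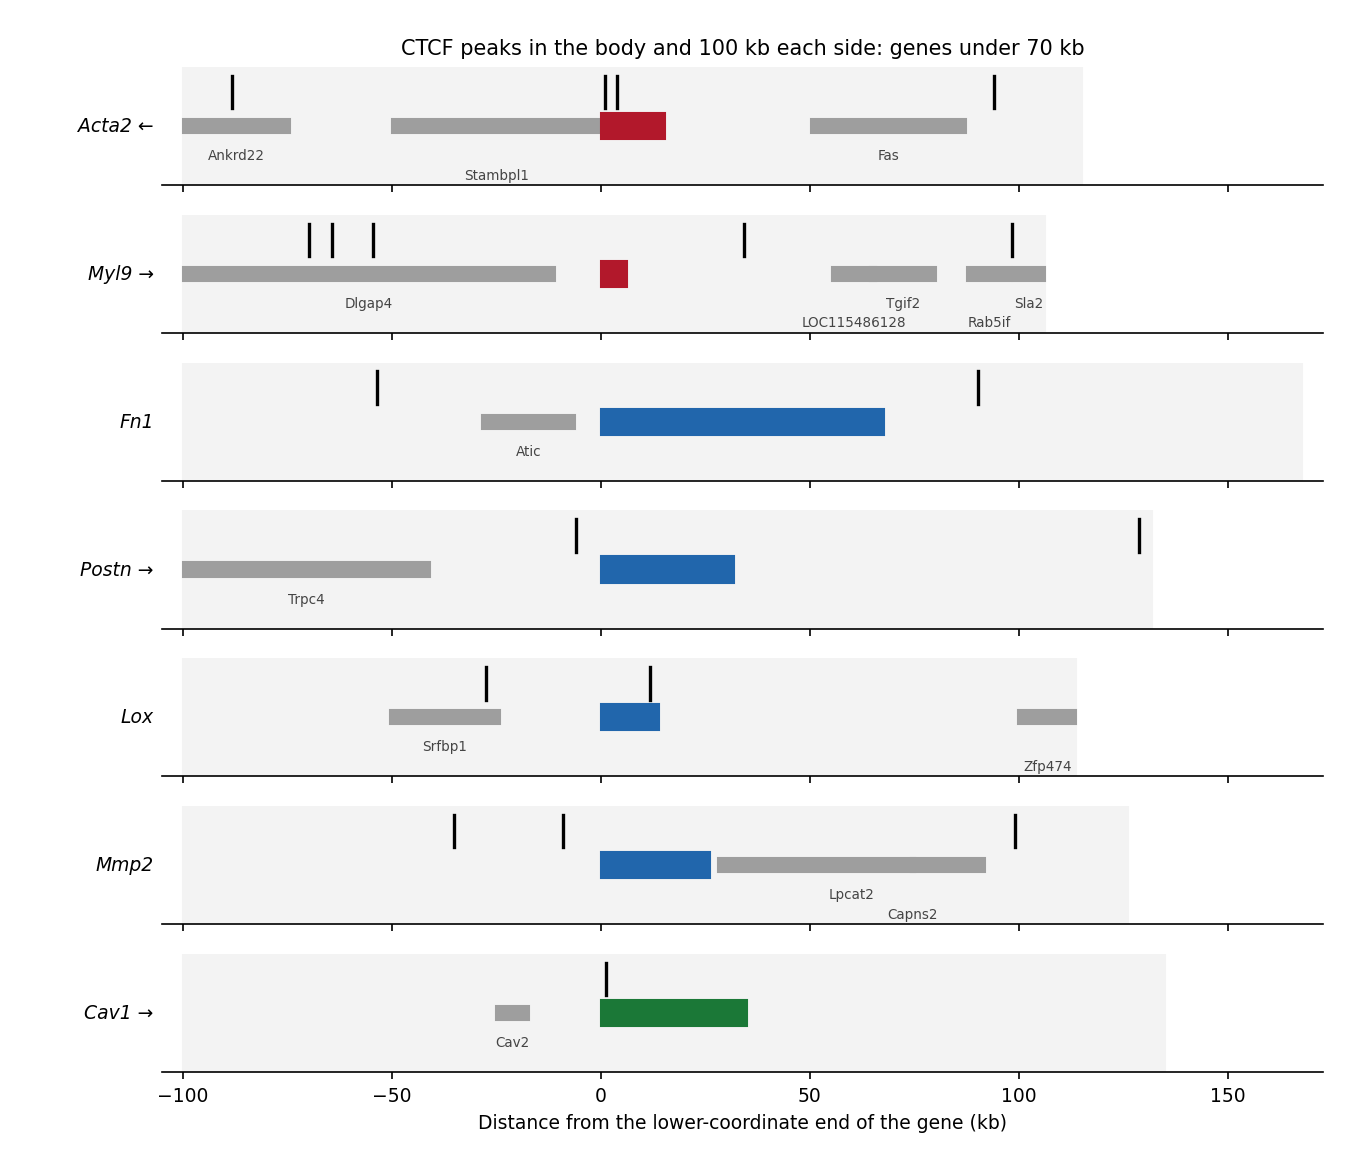
CTCF peaks (black ticks) around the 7 genes under 70 kb, by distance in kb from the lower-coordinate end of each gene; the gene is the coloured bar, other protein-coding genes are grey bars, shading marks the body and 100 kb each side, and arrows give the strand where it was known. Cav1 has a single tick, just inside its body, and Acta2 has 2 ticks near its left end.

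Among the matrix genes, Fn1 and Fbn1 had no peak in long bodies. Fn1, the gene of fibronectin, which links cells to the matrix, spans 67.8 kb of chromosome 1 (71585473 to 71653280). Its peaks lay 53.6 kb below, at chr1:71531805-71532025, and 22.4 kb above, in the non-coding gene Gm46094. They were 144 kb apart, against a matched median of 171 kb, and enclosed Atic, a purine synthesis gene 6.07 kb from Fn1, as well. Of the matched genes 47.4% also had no body peak, and the count of 2 lay at percentile 26.0. With a flank of 250 kb the percentile was 10.8.

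Fbn1, the gene of fibrillin 1, the core of matrix microfibrils, spans 206 kb of chromosome 2 (125300594 to 125506485, minus strand) without a peak. A body without a peak was found in 33% of the matched genes, whose median was 1 and upper quartile 3. All 3 peaks on the lower side, which is downstream of Fbn1, lay in or beside Dut, a nucleotide metabolism gene: 2 in its body, 50.5 and 48.3 kb from Fbn1, and 1 of 236 bp at 41.1 kb, within 1 kb of its end. The upstream side had a single peak at 98.3 kb, inside the centrosome gene Cep152. The flanking peaks were 345 kb apart and enclosed Fbn1 alone, below the matched median of 412 kb. Of all distances between neighbouring peaks 6.64% were longer, but a body of 206 kb without a peak can lie only in a long one. Among the matched genes the interval was at percentile 39.4. The total of 4 lay at percentile 55.1.

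**Figure D3:**
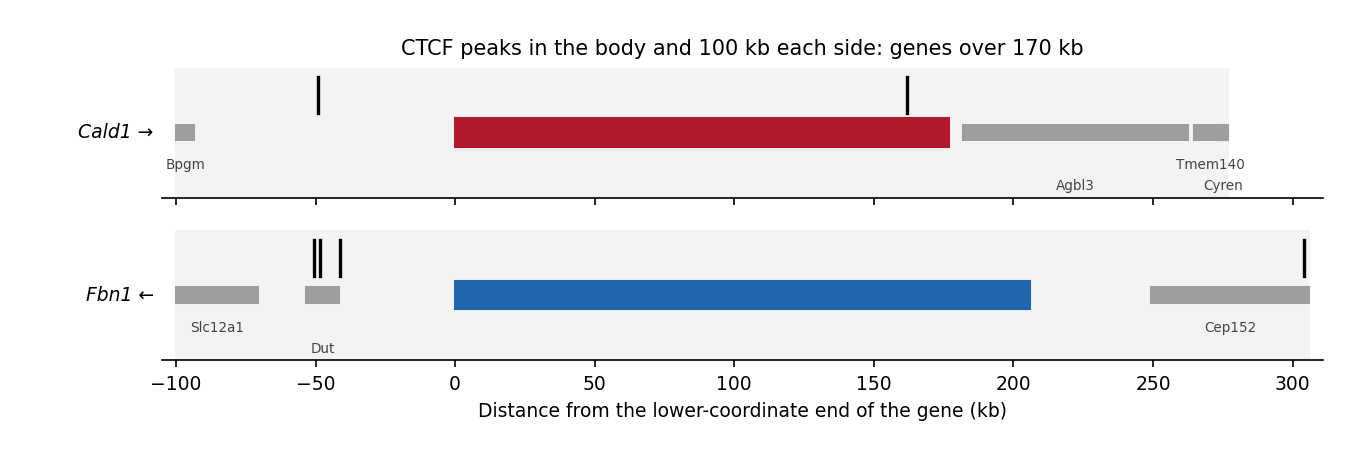
CTCF peaks (black ticks) around Cald1 and Fbn1, by distance in kb from the lower-coordinate end of each gene; bars, shading and arrows are as in the map of the shorter genes. The Fbn1 body of 206 kb carries no tick, and the Cald1 body carries 1 near its right end.

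Postn, the gene of periostin, lies on chromosome 3 (54359267 to 54391041, plus strand, 31.8 kb). It had the nearest upstream peak of the genes with a known strand, 269 bp wide at chr3:54353306-54353574, 5.83 kb before the gene and 7.67 kb before its second annotated start. In 85.2% of matched genes the next peak below the lower-coordinate end, whatever their strand, was farther away. For the nearer outside peak on either side the share was 73%. Downstream the next peak lay at 97.0 kb, and no other protein-coding gene lay between the flanking peaks, which were 135 kb apart against a matched median of 129 kb. The count of 2 was at percentile 28.1.

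Mmp2, on chromosome 8 (92827290 to 92853421, 26.1 kb), showed a like arrangement, with a peak of 392 bp 8.97 kb below the gene and another 35.2 kb below. Above it the next peak lay at 72.9 kb, beyond Lpcat2, a phospholipid enzyme gene that begins 1.89 kb from Mmp2, and Capns2. The flanking peaks were 108 kb apart, against a matched median of 113 kb. The count of 3 was at percentile 38.8, or 53.4 with a flank of 250 kb.

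Lox, the gene of lysyl oxidase, on chromosome 18 (52516060 to 52529867, 13.8 kb), had a body peak of 206 bp at chr18:52527637-52527842, 2.13 kb inside its upper end. Of the matched genes 70.4% had none. Its other peak lay 27.6 kb below, in Srfbp1. Above the gene no peak was listed for 149.7 kb, a distance exceeded by 15.4% of matched genes, and Zfp474 and 1700034E13Rik lay whole in that space. The flanking peaks were 191 kb apart against a matched median of 91.4 kb. The count of 2 was at percentile 24.5 among all matched genes and 42.5 among those of chromosome 18.

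**Figure D4:**
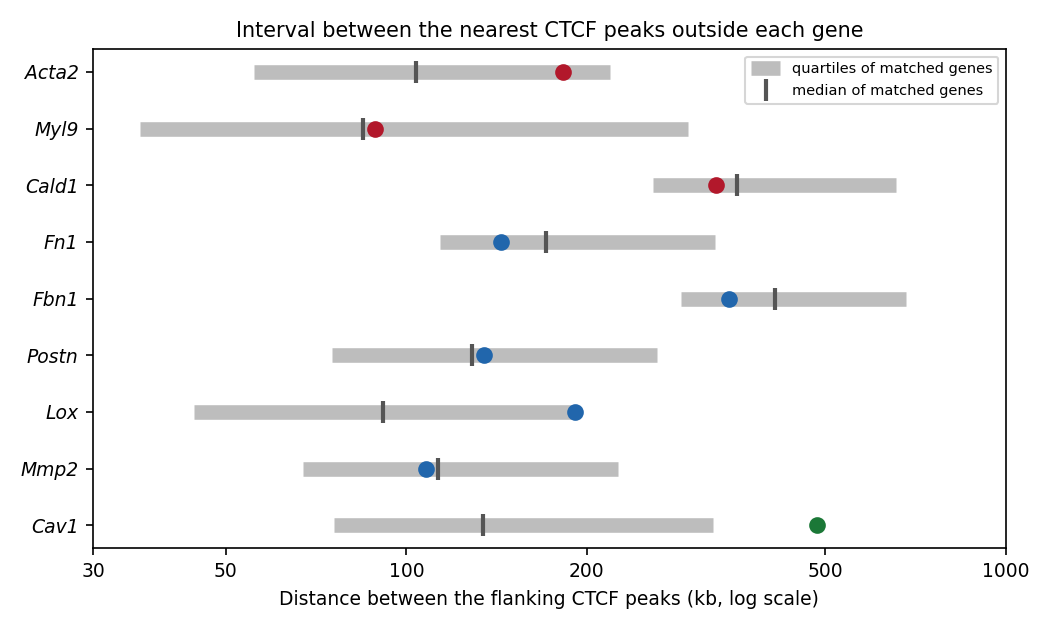
Distance in kb (log axis) between the nearest CTCF peaks outside each gene (points; red contractile, blue matrix, green caveolar), with the quartiles (grey bars) and median (tick) of the matched genes. Cav1, at 484 kb, lies beyond the upper quartile of 325 kb.

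The interval between flanking peaks was longer than the matched median at 5 of the 9 genes and shorter at 4. In order of distance it was 88.8 kb at Myl9, 108 kb at Mmp2, 135 kb at Postn, 144 kb at Fn1, 182 kb at Acta2, 191 kb at Lox, 329 kb at Cald1, 345 kb at Fbn1 and 484 kb at Cav1. The order partly follows gene length, which is part of the interval. Fbn1, Myl9 and Postn were each the single protein-coding gene whole inside their interval, and the others shared it with 1 to 3 more. Several peaks lay close to the border of 100 kb. Those nearest to it were inside at 98.3 kb for Fbn1 and 97.0 kb for Postn. Outside it they lay at 101.5 kb for Acta2, 103 kb for Cald1 and 106 kb for Lox. As the counts were small, a slightly different border would change the counts and percentiles of these genes.

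Related genes from the same programme had higher median percentiles than the 9 with matching on length alone. The median of the 9 was then 34.3, against 50.2 with matching also on neighbouring genes and 52.0 with a flank of 250 kb. In the other alternatives it stayed between 32.15 and 44.6. The related lists were not counted in those other ways. The lists of related genes were 36 contractile genes, 41 matrix genes other than collagens and 8 caveola genes, all matched by symbol or synonym. Neighbouring genes of a list can share peaks. Of the contractile genes 35 had a peak in the window, where the matched genes averaged 86.9%. A body peak was found at 19, or 52.8%, beside 36.6% of matched genes. A peak within 1 kb of an end was found at 11, or 30.6%, beside 13.0%. Their median percentile for the window was 62.8, with 25 above the matched median, 4 at it and 7 below. Most peaks in the window were found at Actg1, the gene of cytoplasmic gamma actin (16), Myh9, that of a nonmuscle myosin heavy chain (15), and Itga5, that of a fibronectin receptor subunit (14). Most in the body were found at Mrtfa, the gene of an actin-sensing coactivator (7), Myh11, that of smooth muscle myosin (5), and Mylk, that of myosin light chain kinase (4). Rock1, the gene of a kinase that raises contractility, had no peak in its window.

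Of the 41 matrix genes 35, or 85.4%, had a peak in the window, beside 87.2% of their matched genes. A body peak was found at 16, or 39%, beside 32.9%, and a peak within 1 kb of an end at 8, or 19.5%, beside 13.1%. Their median percentile was 59.9, with 21 above the matched median, 5 at it and 15 below. The highest counts were at Ltbp3 (17), Timp2 (16) and Ltbp4 (15), genes of binding proteins of latent TGF-beta and of a metalloproteinase inhibitor. In the body Ltbp1 and Timp2 had 5 each, and Fbln1, a fibulin gene, and Ltbp4 had 4 each. Timp2, with 16 peaks in its window, and Mmp2, the gene of the protease it binds, with 3, were at percentiles 98.5 and 38.8. Of the 8 caveola genes, all had a peak in the window, beside 86.7% of matched genes. Body peaks were found at 2, or 25%, beside 27.4%, and gene-end peaks at 3, or 37.5%, beside 14.6%. Their median percentile was 48.3. Ehd2 had 13 peaks, Cavin1 10 and Pacsin2 8, while Cav2 shared the single peak of Cav1. Whether the 9 genes differ from these lists was not tested. Actg1, Timp2 and Cavin1 lie on chromosome 11, where the median window count of protein-coding genes was 7 against 3 over all chromosomes. Ltbp3 lies on chromosome 19, where that median was 6.

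**Figure D5:**
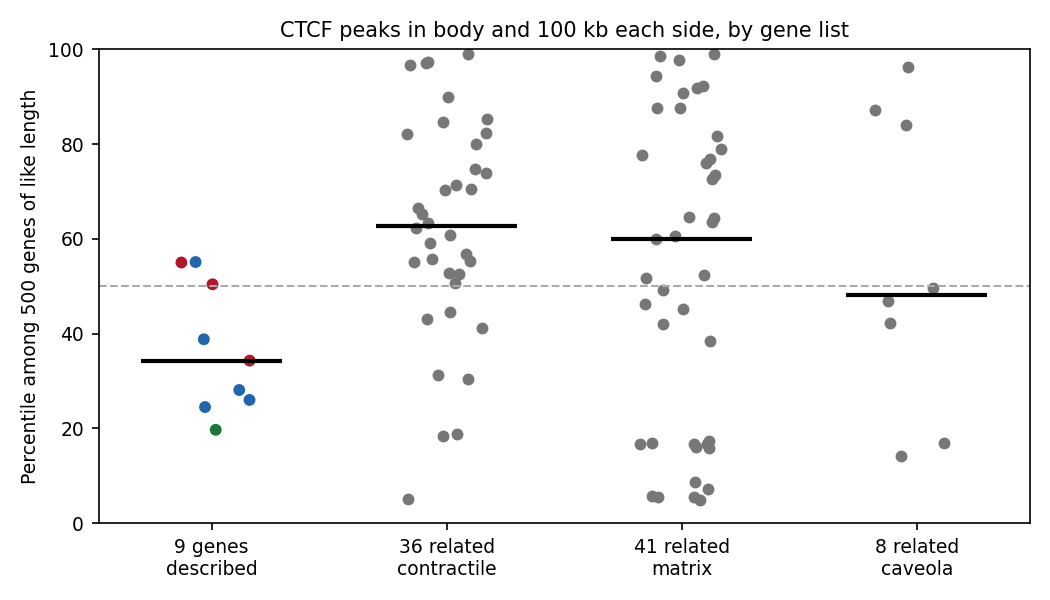
Percentile of the number of CTCF peaks in the body and 100 kb each side among 500 genes of like length, for the 9 genes described (colours as in the counts plot) and 3 lists of related genes (grey points); black lines are medians and the dashed line marks percentile 50. The medians are 34.3 for the 9 genes, 62.8 for contractile, 59.9 for matrix and 48.3 for caveola genes. With matching also on neighbouring genes, not done for the lists, that of the 9 was 50.2. In the other alternatives it ran from 32.15 to 52.0.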

How the data were processed

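The deposited data were 1 list of peak intervals with 3 columns (chromosome, start, end) and no score per peak, that is, genome positions in base pairs without normalisation. Per the submitters' processing notes, STAR, Picard and MACS2 and the builds mm10 and dm6 were used. Versions, roles, threshold, merging rule and use of the Drosophila spike-in are not stated there or in the other sources used. Positions were converted to count from 1, on mm10. The mitochondrial peak was left out, as were RefSeq genes (GRCm38.p6) off chromosomes 1 to 19, X and Y or, except on Y, placed below 3 Mb, which left 49603.

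For each gene, peak midpoints were counted in the body, within 100 kb and near its ends, and distances to the next outside peaks were taken (Python 3.11.15, pandas 2.3.3). Matched genes were the 500 protein-coding genes nearest in log length, without the 9. Counting was tested on simulated peaks. Strand came from the promoter table. Planned motif counts over whole peaks needed a genome sequence and were not made.

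Named were the 9 genes, their nearest and overlapping genes, genes with an end within 1 kb of a peak, and, per related list, the 3 with most peaks in the window and in the body and lists' genes without a peak where 5 or fewer; Met, Tes, Cyren and other genes of an interval were named after its limits were seen. The genes, lists and tests were chosen with earlier results of these data known. Alternatives were other flanks, overlap in place of midpoint, wide peaks, merged peaks, other numbers of matched genes, matching on chromosome, on neighbours, and other distances to ends.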

Additional observations from a re-analysis of the deposited data

How the results depend on the processing

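No result here had a test, so the alternatives show how values moved. With a flank of 50 kb the 9 genes held 14 peaks in all and 0 lay above the matched median. With 250 kb they held 65 and 4 did, against 25 and 2. Peaks of at least median width left 9 in the windows with 1 gene above the matched median, and 1 body peak, in 1 gene, which was also the 1 above its matched median, and widened the median interval between flanking peaks from 182 to 479.6 kb. That setting leaves fewer peaks to count. Matching on chromosome left 1 gene above the matched median for the window. Within 2.5 kb of an end 3 genes had a peak. Of 54 alternative values of these summaries 42 stayed within 1.5 times, but many of the 42 could not have moved. Peak totals, numbers of genes with a peak and the median interval do not use the matched genes, so other matching must repeat them. The main distance to gene ends found no gene, so a shorter distance or wide peaks alone could only repeat that. The 42 are therefore no measure of stability. Of 162 percentiles of single genes 20 crossed 50. Of the motif alternatives, the looser form, added after seeing the data, gave 1 match in the Dlgap4 window, where the strict form gave 0; the planned search of whole peak intervals was not run. No paired analysis was possible because the list names no sample, and no replicate could be left out. Depth is unknown, so a place without a peak may have lacked reads.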
